A study of Mus musculus with 10 samples.

Results

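The 7 genes followed here are ones that red blood cells and their precursors are known to express at high levels, and they were read through RNA-sequencing libraries of mouse skeletal stem cells. They were the adult alpha-globin genes Hba-a1 and Hba-a2, the adult beta-globin genes Hbb-bs and Hbb-bt, Alas2, Slc4a1 and Car2, chosen by name as a readout of red cell RNA in sorted stromal samples. All 7 of the 7 were found by symbol among the 15078 genes of the table, and all 7 passed the filter on low values, a mean of 10 or more, as did 13644 genes in all. The 10 libraries fell into 3 groups. Graft BM-MSCs (n = 4) were bone marrow mesenchymal stem cells sorted from femurs 5 months after the femurs had been placed under the skin of another mouse. The donors of these femurs were transgenic (POSTN-CRE) mice. By the paper, tamoxifen was given to the recipient mice, starting shortly after transplantation. Femur cells that used Postn during this treatment, and their descendants, turn on the red fluorescent protein Tomato, and the sorted cells were Tomato+. BM-MSCs (n = 3) and P-SSCs, skeletal stem cells of the periosteum (n = 3), came from untreated wild-type mice at steady state. The labels give no age for any group. BM-MSC 2+4 and P-SSC 2+5 each hold the RNA of a pair of mice, and because the Postn promoter is used by several cell types, Tomato marks a lineage and not a pure cell type.

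Red cells are made in the marrow from nucleated precursors. Early precursors use the transcription factors Gata1 and Klf1, and as they mature they make large amounts of globin mRNA, which stays in the cell after the nucleus is lost. Alpha and beta chains assemble with heme into hemoglobin, Alas2 starts heme synthesis in these cells, Slc4a1 (band 3) exchanges anions across the membrane and anchors the membrane skeleton, and Car2 is a carbonic anhydrase that interconverts carbon dioxide and bicarbonate. Car2 is also known from osteoclasts and other cells, so it is the least specific of the genes followed here. The study lysed red cells before staining and sorted cells positive for CD51 and CD200, and the gates it describes for these cells leave out Ter119, a surface antigen of red cells, CD45 and CD31.

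The promoters are shown because the same upstream elements recur in all 4 globin genes. The set of RefSeq promoters used here (GRCm38.p6) held an entry for 5 of the genes. The 120 bases directly before the RefSeq start site are given 5′ to 3′ on the strand of the gene. Capitals mark, on either strand, every ATATAA, which is a form of the element that positions the polymerase, as well as every copy of the upstream promoter box CCAAT. They also mark CACCC, the letters bound by Klf1, as well as GATAA, which Gata1 family proteins bind. Marked letters did not overlap.
Hba-a1: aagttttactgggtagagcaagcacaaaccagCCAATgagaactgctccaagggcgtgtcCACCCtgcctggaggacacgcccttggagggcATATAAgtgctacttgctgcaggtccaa
Hbb-bs: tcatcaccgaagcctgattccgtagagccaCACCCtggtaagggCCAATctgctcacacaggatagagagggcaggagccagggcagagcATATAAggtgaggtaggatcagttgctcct
Hbb-bt: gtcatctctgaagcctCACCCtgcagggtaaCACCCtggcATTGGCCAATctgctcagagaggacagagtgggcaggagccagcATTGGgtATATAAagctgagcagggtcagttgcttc
Alas2: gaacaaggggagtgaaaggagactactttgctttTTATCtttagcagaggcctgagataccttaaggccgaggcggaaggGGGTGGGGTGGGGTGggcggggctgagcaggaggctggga
The windows lie at chr11:32283552-32283671 (plus strand), chr7:103827929-103828048 (minus strand), chr7:103813924-103814043 (minus strand) and chrX:150547297-150547416 (plus strand). The Hba-a2 promoter at chr11:32296372-32296491 (plus strand) carried the same letters as that of Hba-a1 with an offset of 3 bases, all 297 aligned bases being identical. Each globin promoter held 1 ATATAA together with 1 or more copies of CCAAT and of CACCC. Alas2 held 3 CACCC and 1 GATAA but neither of the other motifs. Among 32851 mouse promoters searched over the same 120 bases, 4.47% held ATATAA, 21.3% CCAAT, 31.7% CACCC and 10.5% GATAA. A match describes the letters and does not show a binding site.

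The transcripts of each globin pair were almost the same too, which bears on how reads were divided between them. The coding sequences of Hba-a1 and Hba-a2 (429 bases each in GENCODE M21) differed at 1 base, as did those of Hbb-bs and Hbb-bt (444 bases each). The stretches that hold these differences, coding bases 322 to 381 for alpha and 358 to 417 for beta counted from the A of the start codon, are shown with the differing base in capitals.
Hba-a1: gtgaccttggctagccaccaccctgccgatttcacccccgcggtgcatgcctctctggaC
Hba-a2: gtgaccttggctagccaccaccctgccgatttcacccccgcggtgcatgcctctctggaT
Hbb-bs: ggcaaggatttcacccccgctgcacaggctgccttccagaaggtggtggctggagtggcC
Hbb-bt: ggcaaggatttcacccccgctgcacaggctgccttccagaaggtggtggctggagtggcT
Of the stretches of 100 bases in the Hba-a1 transcript, 56.5% were also in Hba-a2, and 74.5% the other way. The corresponding shares were 62.6% of Hbb-bs and 54.8% of Hbb-bt. How the authors' counting treated reads that map to both copies is not given in the sources used here. Values of single globin genes are therefore uncertain. The alpha sum and the beta sum are less affected if such reads were kept, but too low if they were dropped.

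Reads assigned to genes numbered 15415421 to 25223295 per library. Values are normalized read counts, that is, the reads of a gene after scaling each library by its size factor. Libraries split by the recovery of GC-rich genes into the 4 graft libraries and P-SSC 4, where these were high, and the 3 BM-MSC libraries, P-SSC 1 and P-SSC 2+5, where they were low, so within graft BM-MSCs and BM-MSCs this split and the group cannot be told apart. Zeros were more common in the graft: of genes at 100 or more in all other libraries of the group, 0.898% to 8.78% had no read in 1 of the graft libraries, while for steady-state libraries this share did not exceed 0.363%. The labelled cell type was checked on stromal genes. Cxcl12, a chemokine of marrow stroma, lay between 560618 and 995477 in the 7 marrow libraries and between 3503 and 7751 in P-SSCs, while Pdgfra was present in all 10. Of 12 stromal genes, limma with Benjamini-Hochberg adjustment called 4 lower and 1 higher in graft BM-MSCs than in BM-MSCs, against 5.06% and 2.61% of all genes. Postn was at 0 in graft BM-MSC 1, 2 and 3, 235 in graft BM-MSC 4 and 3757 to 5041 in BM-MSCs. Col1a1 was at 9531 to 33746 in the graft and 373972 to 1005119 in BM-MSCs. The endothelial genes Pecam1 and Kdr were not analysed here.

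All 7 red cell genes were highest in steady-state BM-MSCs. For 6 of the 7 the means followed the order BM-MSC, graft BM-MSC, P-SSC, and the exception, Slc4a1, was listed at 0 in both of the lower groups. Together the 7 genes took up 0.306% to 1.22% of all reads in BM-MSCs, 0.0112% to 0.189% in graft BM-MSCs and 0.00101% to 0.00750% in P-SSCs. The ranges did not overlap. For the library with the fewest, P-SSC 1, the share was 0.00101% (205 reads, 95% exact binomial interval 0.000880% to 0.00116%), well clear of 0. In sorted bulk samples fewer red cells and less red cell RNA per cell cannot be told apart. The globin genes supplied 88.9% to 100% of the reads of the 7 genes in every library.

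**Figure D1:**
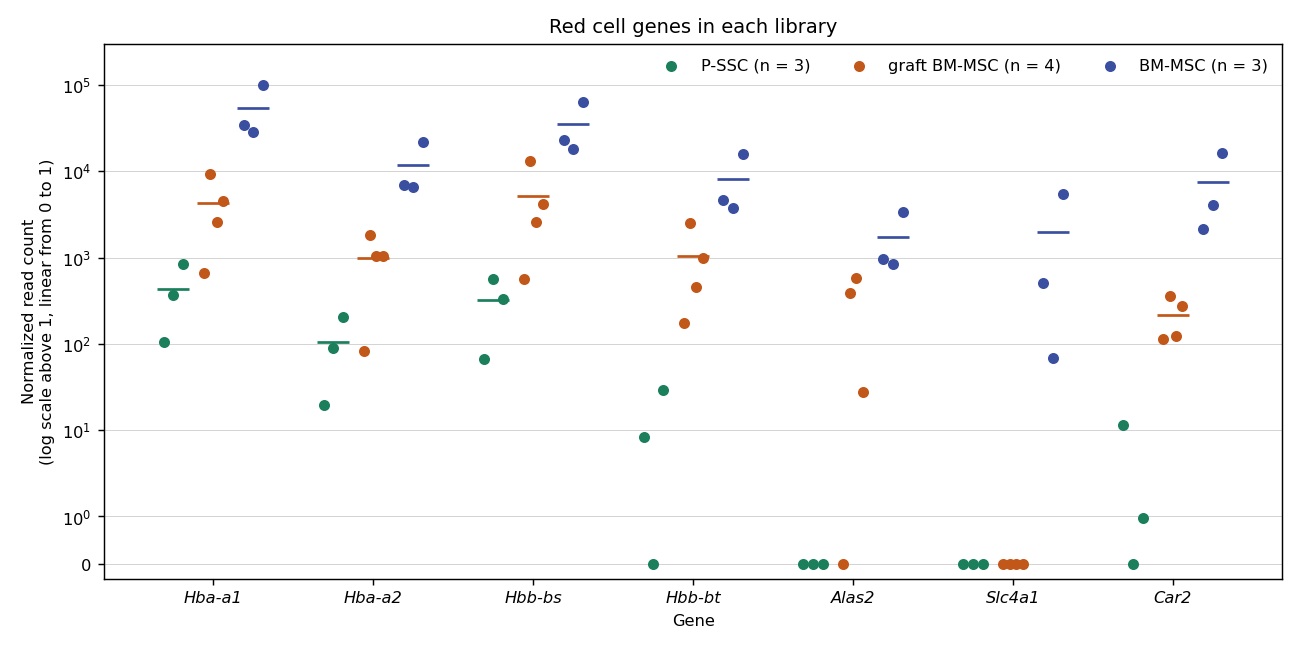
Normalized read count (log scale above 1) of each of the 7 genes in every library, 1 point per library, grouped as P-SSC (n = 3), graft BM-MSC (n = 4) and BM-MSC (n = 3), with a line at the mean where no library of the group is at 0. BM-MSC points lie above all graft points for each gene, and Slc4a1 is at 0 in all 7 other libraries.

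Hba-a1 (ENSMUSG00000069919, GRCm38 chromosome 11, 32283511 to 32284465, plus strand) had a normalized read count of 34503 in BM-MSC 1, 28921 in BM-MSC 2+4 and 99214 in BM-MSC 3. Graft BM-MSC 1 to 4 had 662, 9438, 2618 and 4596. P-SSC 1, 2+5 and 4 had 106, 369 and 840. BM-MSC libraries were thus separate from both other groups, and the lowest graft library fell among the P-SSC libraries. The BM-MSC mean was 54213 ± 39072 (SD, n = 3). The graft mean was 4329 ± 3766 (SD, n = 4), and that of P-SSCs 439 ± 372 (SD, n = 3). Per length, as reads per kb of exon, Hba-a1 was the gene of rank 4 of the whole table in BM-MSC 3, while its rank was 1034 in graft BM-MSC 1 and 4065 in P-SSC 1.

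Hba-a2 (ENSMUSG00000069917, chromosome 11, 32296489 to 32297298, plus strand), the second alpha gene, ran in parallel at a lower level. Its values were 7003, 6621 and 21989 in BM-MSC 1, 2+4 and 3, and 81.9, 1820, 1048 and 1053 in graft BM-MSC 1 to 4. P-SSC 1, 2+5 and 4 had 19.7, 90.4 and 204. Graft BM-MSC 1 lay within the P-SSC range and the other graft libraries above it.

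Hbb-bs (ENSMUSG00000052305, chromosome 7, 103826534 to 103828096, minus strand), the more abundant beta gene, had values of 23144, 18402 and 64265 in BM-MSC 1, 2+4 and 3. The graft libraries 1 to 4 had 563, 13315, 2607 and 4163, whereas P-SSC 1, 2+5 and 4 had 67.5, 566 and 333. The lowest graft value and the highest P-SSC value were nearly equal. Graft BM-MSC 2 was closer to the lowest BM-MSC library here than for any alpha gene.

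Hbb-bt (ENSMUSG00000073940, chromosome 7, 103812524 to 103813996, minus strand), the minor beta gene, separated all 3 groups. It had 4705, 3797 and 15767 in BM-MSC 1, 2+4 and 3, and 175, 2519, 456 and 1001 in graft BM-MSC 1 to 4. In P-SSCs it had 8.31 and 29.1 in P-SSC 1 and 4 and was listed at 0 in P-SSC 2+5.

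Alas2 (ENSMUSG00000025270, chromosome X, 150547375 to 150570638, plus strand), the erythroid form of the enzyme that starts heme synthesis, had 967, 842 and 3396 in BM-MSC 1, 2+4 and 3. Graft BM-MSC 1 had no Alas2 read, and graft BM-MSC 2, 3 and 4 had 388, 583 and 27.6. It was listed at 0 in all 3 P-SSC libraries. The graft library with the most Alas2, graft BM-MSC 3, was not the one with the most globin.

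Slc4a1 (ENSMUSG00000006574, chromosome 11, 102348824 to 102366203, minus strand), which encodes the anion exchanger band 3, had 502, 68.5 and 5409 in BM-MSC 1, 2+4 and 3 and was listed at 0 in all 4 graft and all 3 P-SSC libraries. It was the most uneven gene of the set within BM-MSCs. BM-MSC 3 exceeded the mean of the other BM-MSC libraries 18.9-fold for Slc4a1, 5.25-fold for Car2 and between 3.09-fold and 3.76-fold for the globin genes and Alas2, and it was the highest library for 7 of 7 genes.

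Car2 (ENSMUSG00000027562, chromosome 3, 14886273 to 14900770, plus strand) had 2168, 4072 and 16393 in BM-MSC 1, 2+4 and 3. The graft libraries had 114, 357, 125 and 277, a narrower spread than for any globin gene. P-SSC 1 and 4 had 11.4 and 0.969, the latter a single read, and P-SSC 2+5 was listed at 0. As with Hbb-bt, the values of the 3 groups did not overlap.

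The comparison of P-SSCs with BM-MSCs asks how both populations differed in bones that were never transplanted. All 7 genes were lower in P-SSCs. limma with Benjamini-Hochberg adjustment over 13644 genes called 7 of 7 lower, against 4.58% of all genes called lower and 4.57% called higher. For 7 of 7 the highest P-SSC value was below the lowest BM-MSC value, against 15.8% of all genes in the same direction. On the log2(value + 1) scale the differences were -7.17 for Hba-a1 (SE 0.97, adjusted p = 0.000780), -7.11 for Hba-a2 (SE 1.15, adjusted p = 0.00237), -7.00 for Hbb-bs (SE 1.08, adjusted p = 0.00169) and -9.97 for Hbb-bt (SE 1.28, adjusted p = 0.000596). Car2 differed most, by -10.82 (SE 1.11, adjusted p = 0.000177). For Alas2 and Slc4a1, at 0 in every P-SSC library, a floor of 3 reads per library gives means at least 529-fold and at least 607-fold lower in P-SSCs. Without BM-MSC 3 these bounds were 276-fold and 87.0-fold. The median difference of the 7 genes was -9.17, beside 0.00 over all genes tested, and -9.05 with genes at the floor set to their bound. Within the libraries low in GC-rich genes, that is, without P-SSC 4, all 7 remained lower, by -7.26 (Hbb-bs) to -11.07 (Hbb-bt), and 7 of 7 were called.

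In the graft, red cell genes were below the level of steady-state marrow. This comparison asks what separates marrow stroma of the graft from that of a femur left in place. For 7 of 7 genes the highest graft library was below the lowest BM-MSC library, against 14.7% of all genes that did not overlap in this direction. limma called 3 of 7 lower, with 5.06% of all genes called lower and 2.61% higher. These were Hba-a1 (-3.97, SE 0.91, adjusted p = 0.0270), Car2 (-4.75, SE 1.03, adjusted p = 0.0225) and Slc4a1 (adjusted p = 0.00408), which by the floor was at least 811-fold lower in the graft, or at least 116-fold lower without BM-MSC 3. The other 4 had differences of -3.98 (Hba-a2, adjusted p = 0.0510), -3.33 (Hbb-bs, adjusted p = 0.0753), -3.29 (Hbb-bt, adjusted p = 0.121) and -4.80 (Alas2, adjusted p = 0.166) and did not pass limma's test with Benjamini-Hochberg adjustment. The median of the 7 was -3.98, beside -0.53 over all genes. The count was 1 of 7 without BM-MSC 2+4 or without BM-MSC 3, 2 of 7 without BM-MSC 1 or without graft BM-MSC 3, and 5 of 7 without graft BM-MSC 2. All 4 graft libraries were high and all 3 BM-MSC libraries low in GC-rich genes. With this split as a covariate, which only P-SSC 4 tells apart from the groups, limma called 0 of 7 (4 at an unadjusted p under 0.05), with differences of -9.17 to -3.91 and adjusted p from 0.242 to 0.856. edgeR called 1 of 7 and DESeq2 6 of 7.

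**Figure D2:**
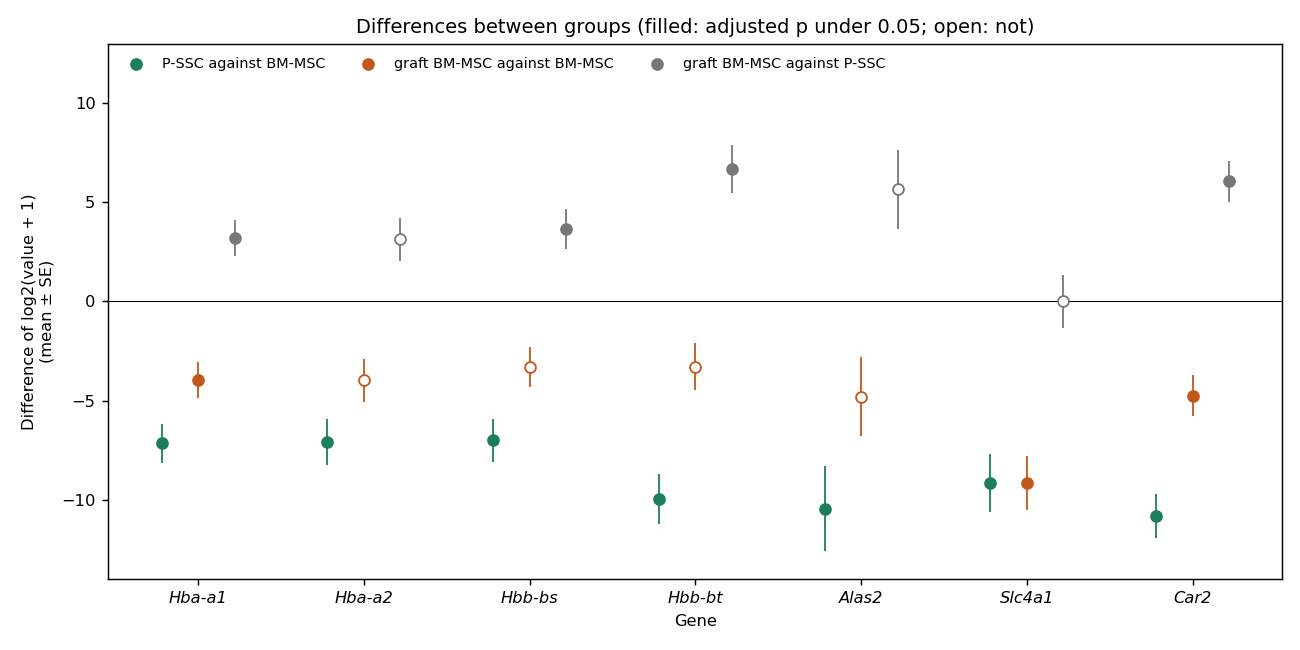
Difference of log2(value + 1) between groups with its standard error for the 7 genes, from the limma fit to all 10 libraries, with filled points for an adjusted p under 0.05. P-SSCs are filled below BM-MSCs for all 7, graft BM-MSCs are below BM-MSCs for all 7 with 3 filled, and graft BM-MSCs are above P-SSCs for 6 with 4 filled.

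Graft BM-MSCs, to which the paper assigns a periosteal origin, were set against P-SSCs. The aim was to see how Tomato+ cells of the graft marrow differ from periosteal cells in place. The graft cells were higher for 4 of 7 genes by limma, while 6.08% of all genes were called higher and 12.0% lower. Hbb-bt was higher by 6.68 (SE 1.19, adjusted p = 0.00306), Car2 by 6.07 (SE 1.03, adjusted p = 0.00234), Hbb-bs by 3.68 (SE 1.01, adjusted p = 0.0293) and Hba-a1 by 3.19 (SE 0.91, adjusted p = 0.0344). Hba-a2 (3.13, adjusted p = 0.0700) and Alas2 (5.66, adjusted p = 0.0762) did not pass, and Slc4a1, at 0 in both groups, gave no difference to measure. Values did not overlap for 2 of 7, Hbb-bt and Car2, against 8.06% of all genes. The Alas2 mean was at least 76.1-fold higher in the graft by the floor of 3 reads, or at least 42.2-fold without graft BM-MSC 3. The median of the 7 was 3.68, beside -0.47 over all genes.

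The graft and P-SSC difference also depended on single libraries. limma called 2 of 7 genes without graft BM-MSC 2, 3 or 4, without BM-MSC 1 or without P-SSC 1, and 6 of 7 without graft BM-MSC 1, the graft library lowest in all 4 globin genes. Among libraries high in GC-rich genes only P-SSC 4 was available for comparison, which allows no test. Against P-SSC 4 alone graft BM-MSCs were higher by 1.81 for Hba-a1, 1.64 for Hba-a2, 3.17 for Hbb-bs, 4.48 for Hbb-bt, 5.66 for Alas2 and 6.63 for Car2. With the split as a covariate in limma, Car2 alone passed (adjusted p = 0.0364, range over 21 alternatives 1.31e-07 to 0.165).

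The balance of alpha and beta reads differed among the groups of libraries. Alpha genes gave 59.8%, 61.6% and 60.2% of the reads of the 4 globin genes in BM-MSC 1, 2+4 and 3. The share was 50.2%, 41.6%, 54.5% and 52.2% in graft BM-MSC 1 to 4, so every graft library was below every BM-MSC library. In P-SSCs it ranged from 44.8% to 74.2%, with the few globin reads of P-SSC 1 giving 62.4% (95% exact binomial interval 55.1% to 69.2%), a range that held all BM-MSC libraries and 3 of the 4 graft libraries. The ratio of alpha to beta in BM-MSCs was 1.54 ± 0.06 (SD, n = 3), and in the graft it was 1.00 ± 0.21 (SD, n = 4). Alpha genes have a GC content of 57.2% and 56.9%, beta genes 51.3% and 50.8%, and the libraries differ in GC recovery as described above. The part of GC content in this ratio was not tested, nor was that of reads that map to both copies of a pair.

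Within the pairs, the ratio of Hba-a1 to Hba-a2 in BM-MSCs was 4.60 ± 0.29 (SD, n = 3), close to the 4.53 ± 0.73 (SD, n = 3) of P-SSCs. In the graft it ran from 2.50 in graft BM-MSC 3 to 8.08 in graft BM-MSC 1. Hbb-bs exceeded Hbb-bt 4.61 ± 0.47-fold (SD, n = 3) in BM-MSCs, and the graft ratio was 4.59 ± 1.13 (SD, n = 4), a difference smaller than the spread between libraries. P-SSCs were higher, at 8.13 in P-SSC 1 and 11.5 in P-SSC 4, while P-SSC 2+5 had 444 Hbb-bs reads and 0 Hbb-bt reads.

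Alas2, set against the globin sum of the same library, was nearly constant in BM-MSCs, at 1.39%, 1.46% and 1.69%. In graft BM-MSC 1 to 4 it was 0%, 1.43%, 8.66% and 0.255%, a spread wider than in BM-MSCs on both sides. Slc4a1 was not constant even in BM-MSCs, at 0.724%, 0.119% and 2.69% of the globin sum. In the graft, a floor of 3 reads corresponds to between 0.00934% and 0.114% of the globin sum, which is under the lowest BM-MSC value. At that lowest BM-MSC share, 3.12 Slc4a1 reads would fall in graft BM-MSC 1, too few to tell from 0 firmly, and 38.1, 7.93 and 14.9 in graft BM-MSC 2, 3 and 4. Zeros also fell on abundant genes of the graft libraries, as given above, and their part in the absence of Slc4a1 reads was not tested.

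**Figure D3:**
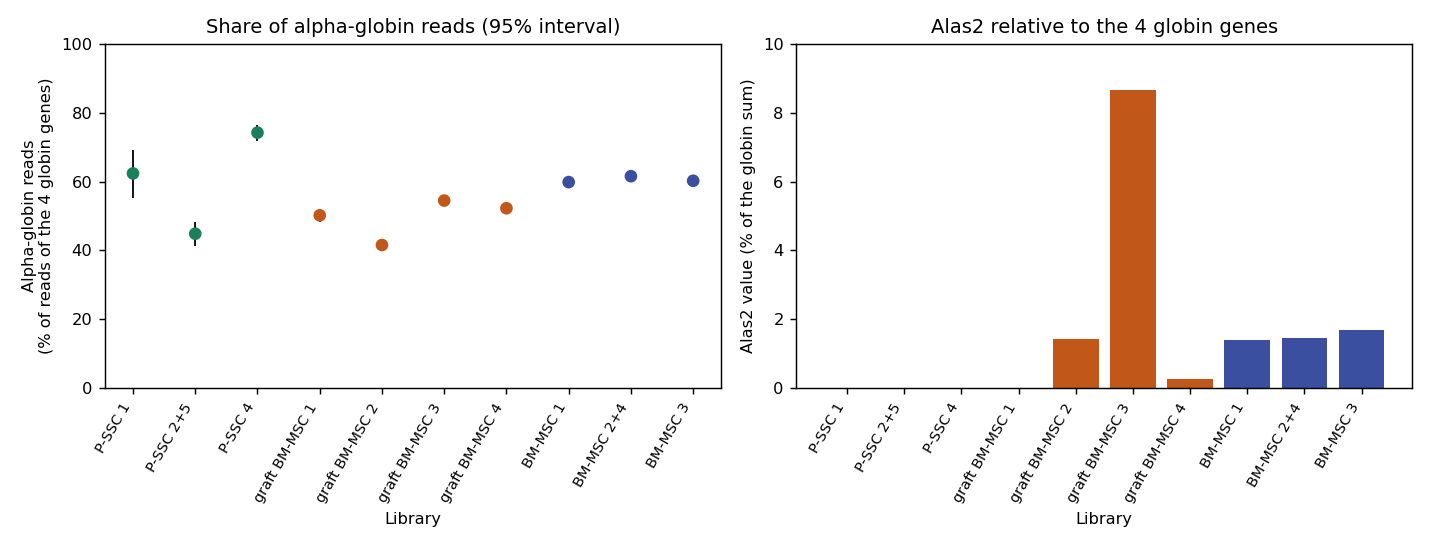
Left, alpha-globin reads as a percentage of the reads of the 4 globin genes in each library with the 95% exact binomial interval. Right, the Alas2 value as a percentage of the globin sum. The graft libraries lie at 41.6% to 54.5% alpha and the BM-MSC libraries at 59.8% to 61.6%, and Alas2 stands out at 8.66% in graft BM-MSC 3.

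Other genes of the red cell program were taken from lists of globins, heme synthesis, membrane proteins, erythroid regulators and late erythroid genes. Of 82 genes listed outside the 7, 70 were in the table and 68 were tested. In P-SSCs against BM-MSCs 19 were lower and 0 higher by limma, where at an unadjusted p under 0.05 there were 29 lower and 1 higher, edgeR called 4 and DESeq2 20, and 4.58% of all genes were lower by limma. In graft BM-MSCs against BM-MSCs 16 were lower and 1 higher, against 5.06% and 2.61% of all genes. There edgeR called 4, DESeq2 19 and limma with the GC split as a covariate 0. In graft BM-MSCs against P-SSCs 2 were higher and 7 lower, against 6.08% and 12.0% of all genes, and edgeR called 6. The medians of the 68 were -1.76, -2.90 and 0.00 in that order, beside 0.00, -0.53 and -0.47 over all genes.

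Of 32 membrane genes and regulators in the table, each BM-MSC library had reads of 31 or 32, each graft library of 7 to 17 and each P-SSC library of 11 to 16. In the graft, 13 were listed at 0 in every library, against 12 in P-SSCs and 0 in BM-MSCs. Of all 15078 genes, graft libraries had reads of 9308 to 11674 and BM-MSC libraries of 12677 to 13341. P-SSC libraries had reads of 12217 to 13068. The part of this general difference in the counts of red cell genes was not tested. Of the membrane genes tested, limma called 9 of 19 lower in the graft than in BM-MSCs and 8 of 19 lower in P-SSCs than in BM-MSCs, with 5.06% and 4.58% of all genes lower. edgeR called 1 of 19 in each comparison, and DESeq2 called 7 and 8. Rhag, part of the Rh complex, had 85.6, 247 and 1033 in BM-MSC 1, 2+4 and 3 and was at 0 in the other 7 libraries. Kel, a blood group glycoprotein, and Slc14a1, a urea transporter, had the same pattern with BM-MSC values from 67.9 to 552 and from 86.7 to 280. Epb42, which ties band 3 to the membrane skeleton, did as well, at 49.1, 70.7 and 704. By the floor, Rhag was at least 185-fold, Epb42 at least 112-fold and Kel at least 111-fold lower in the graft. Without BM-MSC 3 these bounds were 67.6-fold, 24.4-fold and 53.7-fold.

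Among erythroid regulators, 3 of 11 tested were lower by limma in graft BM-MSCs than in BM-MSCs and 4 of 11 lower in P-SSCs, with 5.06% and 4.58% of all genes lower. edgeR called 1 of 11 in each comparison. Not all members had lower values in the graft. Ldb1, a cofactor of Gata1 used in many cells, had 342 to 1700 in the graft and 168 to 258 in BM-MSCs without passing limma's test (1.99, adjusted p = 0.0969), and Lmo2 and Zfpm1 had higher means in the graft with overlapping libraries. Gata1, the master regulator of the lineage, had 272, 318 and 1315 in BM-MSCs, 20.9 in graft BM-MSC 1 and 0 in the other graft and all P-SSC libraries. Gfi1b, a repressor needed for red cell and platelet precursors, had 182, 654 and 1432 in BM-MSCs and was at 0 in the other 7 libraries. Klf1, which activates the adult beta-globin promoter through its CACCC letters, had 334, 452 and 1586 in BM-MSCs, while in graft BM-MSC 1 to 4 it had 83.0, 0, 0 and 190. Graft BM-MSC 2, with the most globin of the graft libraries, and graft BM-MSC 3 thus had reads of none of these 3 regulators. Graft BM-MSC 2 was also the library with the most zeros. There 8.78% of genes at 100 or more in the other graft libraries had no read, against 0.898% to 2.54% for the other graft libraries. Graft BM-MSC 3 had the 2.54%. The part of such zeros in the missing regulator reads was not tested.

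**Figure D4:**
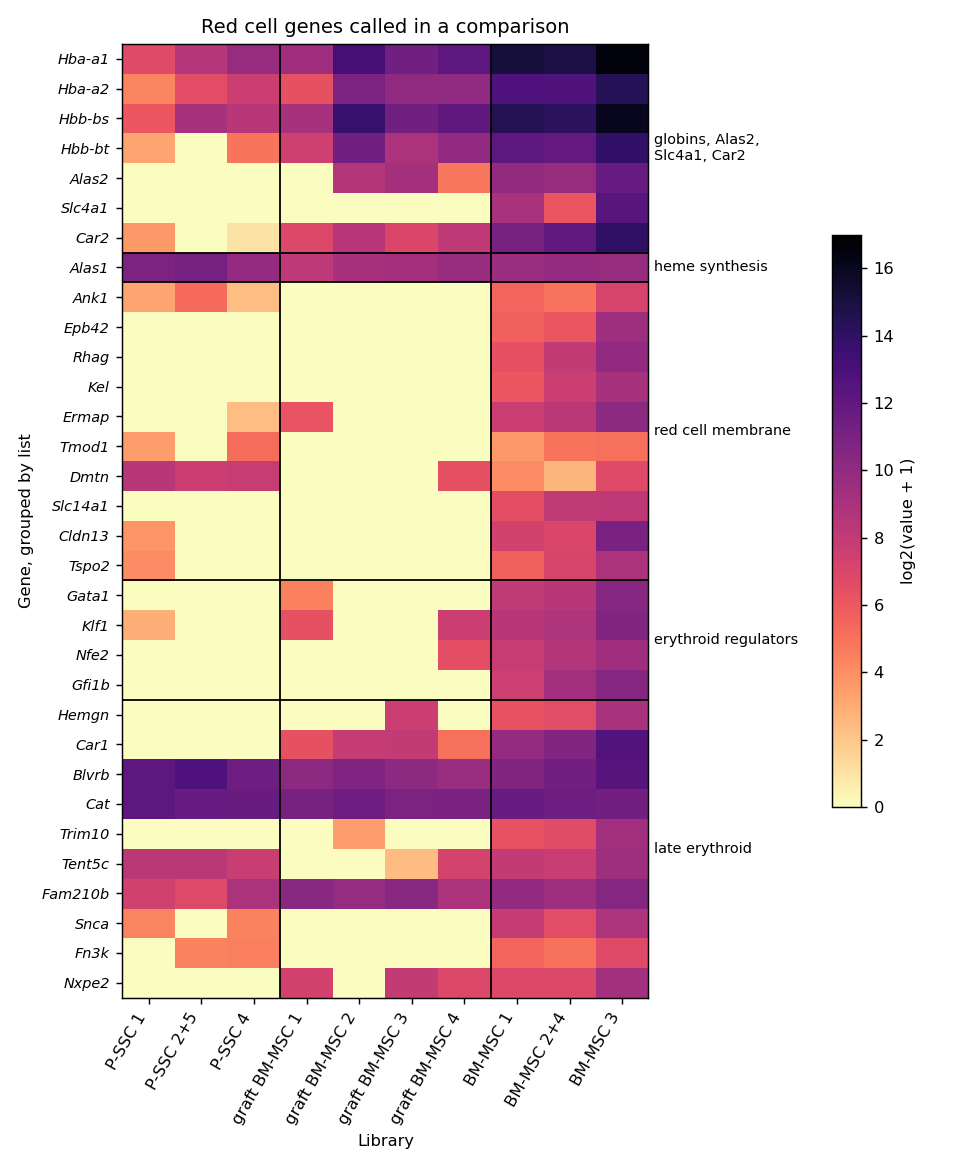
log2(value + 1) of the 7 genes and of the heme synthesis, membrane, regulator and late erythroid genes that passed an adjusted p of 0.05 in any comparison and are reported here, with libraries in columns from P-SSC to BM-MSC and genes in rows by list. Globin rows carry signal in all graft libraries, whereas rows such as Epb42, Rhag, Kel and Gfi1b carry signal in the 3 BM-MSC libraries and are at 0 elsewhere.

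Heme synthesis genes, most of which every cell needs, gave few calls. Of 15 tested, 0 passed in graft BM-MSCs against BM-MSCs with limma, where 5.06% of all genes were lower and 2.61% higher. At an unadjusted p under 0.05 there were 3 lower and 1 higher, edgeR called 0 and DESeq2 called 3. The median log2 difference was -1.04, beside -0.53 over all genes. Ratios of means there ran from 10.2-fold higher in the graft (Glrx5) to 5.15-fold lower (Abcb6). Glrx5 followed the GC split of the libraries. It was at 748 to 1549 in the graft and 1183 in P-SSC 4. In BM-MSCs it was at 56.4 to 148, and in P-SSC 1 and 2+5 at 30.1 and 66.2. In P-SSCs against BM-MSCs limma called 1 of 15 lower and 0 higher, against 4.58% and 4.57% of all genes. Alas1, the form of the first enzyme used outside the red cell lineage, went the other way from Alas2. It had 1894, 2276 and 911 in P-SSCs and 300.0 to 854 in graft BM-MSCs, and was lower in the graft than in P-SSCs by 1.57 on the log2 scale (limma, SE 0.43, adjusted p = 0.0294).

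Of 4 other globins in the table, Hbq1b, a theta globin, had 58.5, 42.2 and 87.8 in BM-MSCs, 33.7 in graft BM-MSC 4 and 0 elsewhere. Cygb, cytoglobin of fibroblasts, is no red cell gene and was higher in graft BM-MSCs than in BM-MSCs (limma, 2.56, SE 0.50, adjusted p = 0.0141). It was at 2695 in P-SSC 4, level with the graft libraries at 2615 to 3202, and at 521 and 579 in the other P-SSC libraries, so it followed the GC split of the libraries. Mb, myoglobin of muscle, was found in P-SSCs only, at 1.04, 111 and 13.6. The embryonic globins Hba-x, Hbb-y and Hbb-bh1 were not analysed here.

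Among late erythroid genes Car1, the red cell carbonic anhydrase next to Car2, was the closest match to the 7. It had 931, 1536 and 6223 in BM-MSCs, while graft BM-MSC 1 to 4 had 80.8, 231, 246 and 32.8 and P-SSCs were listed at 0. Car1 was lower in the graft than in BM-MSCs by 4.21 on the log2 scale (limma, SE 1.08, adjusted p = 0.0426). The ratio of Car1 to Car2 was 0.395 ± 0.029 (SD, n = 3) in BM-MSCs and ran from 0.118 to 1.97 in the graft. Other genes of this list with roles in most cells, such as Cat (catalase) and Blvrb (biliverdin reductase B), were lower in graft BM-MSCs than in P-SSCs by 0.77 and 1.91 (limma, adjusted p = 0.0440 and 0.0163), opposite in direction to the globins. Fam210b, a mitochondrial protein of heme-making cells, was higher by 2.14 (adjusted p = 0.0262, limma).

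The 7 genes were compared with all genes tested by Pearson's r of log2(value + 1) over the 10 libraries, as a description. Pairs among the 4 globins had r from 0.888 to 0.992. For Hba-a1 the 5 most alike genes were Hba-a2 (0.992), Hbb-bs (0.983), Slc19a1 (0.936), Gmfg (0.932) and Tk1 (0.924). Hba-a2 had Hba-a1, Hbb-bs, Tk1, Gmfg and Alas2, and Hbb-bs had Hba-a1, Hba-a2, Sema5a, Gmfg and Tk1. Hbb-bt was most like P2rx4 (0.963), then Car2, Gpr107, Porcn and Jpt2. The genes given here for Alas2 are Selenop (0.966), Ltf, Ly6c2 and Gmfg. Slc4a1 was most like Glp2r, Hmmr, Slc9a2, Apol11b and Pklr, with r from 0.992 to 1.000, since such genes share the 0 values of 7 libraries. Car2 was most like Jpt2 (0.988), followed by Car1 (0.958), Hbb-bt, Gja1 and Myo18a. Among these, Pklr (red cell pyruvate kinase) and Car1 are known red cell genes, Ltf and Ly6c2 are known from white cells, and Gja1 is known from stroma. All points share their groups and the depth and GC recovery of a library, so r describes mostly the order of the 3 groups.

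Marker genes of other marrow cells were read beside the red cell genes. The summed value of 13 neutrophil genes was 32446 to 98437 in BM-MSCs, 5849 to 119670 in graft BM-MSCs and 33.9 to 287 in P-SSCs. By limma 10 of 13 were lower in P-SSCs than in BM-MSCs, against 4.58% of all genes. In graft BM-MSCs 7 of 13 were higher than in P-SSCs, against 6.08% of all genes. S100a8, an abundant neutrophil protein, had 3788, 9252 and 14563 in BM-MSCs and 2740, 3579, 40754 and 1343 in graft BM-MSC 1 to 4. Neutrophil genes did not follow globins within the graft, where graft BM-MSC 3 held most of the first and graft BM-MSC 2 most of the second. In graft BM-MSCs against BM-MSCs 0 of 13 passed with limma, with 5.06% of all genes lower and 2.61% higher. There 3 of 13 had an unadjusted p under 0.05, edgeR called 0 and DESeq2 called 0. Mpo had 6804 in BM-MSC 1 and was at 0 in every other library, BM-MSC 2+4 and 3 among them. Ly6g, Retnlg, Mmp8 and Cd177 were at 0 in all P-SSC libraries.

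Macrophage genes without Vcam1, a stromal gene as well, summed to 18006 to 22492 in BM-MSCs, 3412 to 16476 in graft BM-MSCs and 1760 to 4230 in P-SSCs. Lyz2, a lysozyme that neutrophils make as well, gave 12846 of the 16476 in graft BM-MSC 3, and without it the graft sums were 2003 to 3897. Adgre1, the F4/80 antigen, had 90.9, 86.5 and 0.986 in BM-MSC 1, 2+4 and 3. It was at 0 in every graft library and at most 0.969 in P-SSCs. Mrc1 had 41.8 in BM-MSC 1 and 0.863 in graft BM-MSC 4, and was at 0 in all other libraries. A related macrophage of the spleen and marrow that recycles red cell iron is marked by Spic, which had 34.5, 48.5 and 38.5 in BM-MSCs and was at 0 in the other 7 libraries. The 6 genes of leukocytes in general summed to 2834 to 5849 in BM-MSCs, 250 to 5342 in the graft and 0.969 to 169 in P-SSCs, where Ptprc (CD45) was at 0 throughout. Megakaryocyte genes, from a lineage that also uses Gata1 and Gfi1b, summed to 314 to 1964 in BM-MSCs, 74.2 to 612 in the graft and 204 to 669 in P-SSCs. Most of the P-SSC sum was Itga2b, at 652, 306 and 204 in P-SSC 1, 2+5 and 4, so the place of P-SSCs rests on this gene. Ppbp and Gp9 were at 0 in every P-SSC library, and Tubb1 in every graft and P-SSC library. Osteoclast genes bear on Car2. Their sum was 11238 to 14845 in BM-MSCs, 10042 to 13447 in graft BM-MSCs and 10860 to 13780 in P-SSCs. The largest part in each library came from Ctsk, which stromal cells also make. Ctsk had 3375 to 5411 in BM-MSCs, 5010 to 9680 in graft BM-MSCs and 5001 to 8116 in P-SSCs. Acp5, a phosphatase of osteoclasts, was at 290 to 900 in BM-MSCs, 1.69 to 106 in the graft and 265 to 333 in P-SSCs. Its graft values lay below all BM-MSC values, as those of Car2 did, without passing limma's test (-3.74, adjusted p = 0.0887), but its P-SSC values did not. Mmp9, of the same list, had 1531 to 3877 in BM-MSCs, 979 to 1697 in the graft and 0 to 5.82 in P-SSCs. By limma Mmp9 was lower in P-SSCs than in BM-MSCs and in graft BM-MSCs, while Calcr was higher in P-SSCs than in both. The part of these other cells in the red cell values was not tested.

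**Figure D5:**
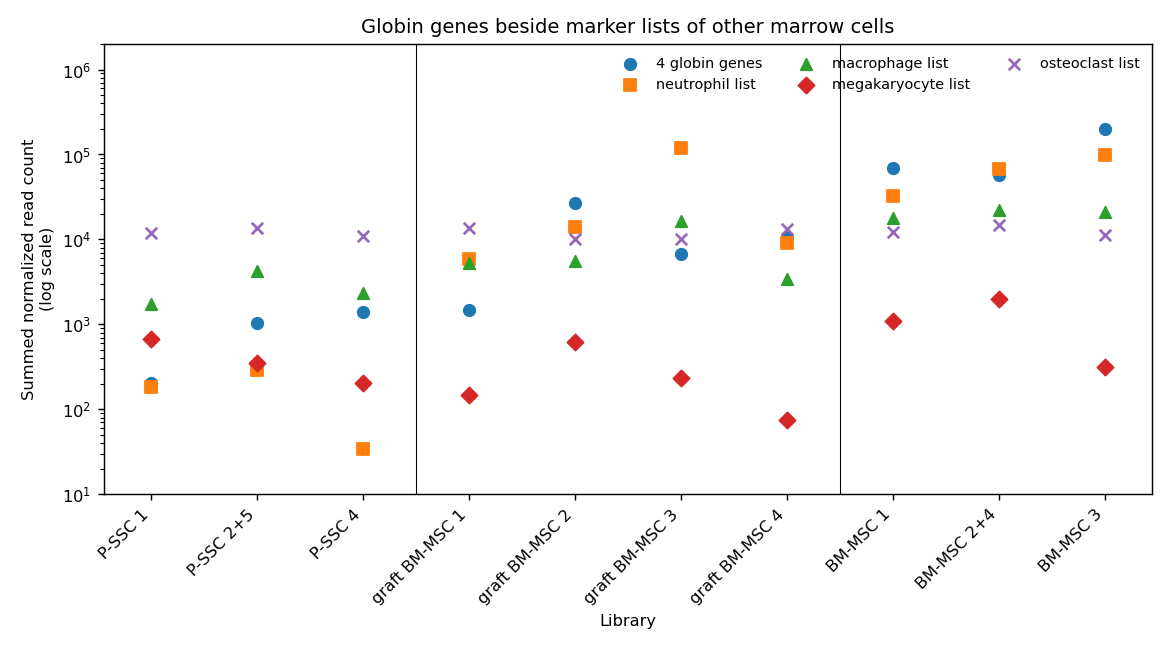
Summed normalized read count (log scale) of the 4 globin genes and of marker lists of neutrophils (13 genes), macrophages, megakaryocytes and osteoclasts in each library. Globin and neutrophil sums are lowest in the 3 P-SSC libraries, while the osteoclast sum stays between 10042 and 14845 throughout.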

How the data were processed

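Poly-A RNA of sorted cells was sequenced in 10 libraries. Submitters' processing notes name cutadapt 1.15, STAR 2.5, featureCounts (Subread 1.4.6) and DESeq2 1.26.0. The methods give genome GRCm38 and the notes GRCm39, and the strand setting is not given in the sources used here. The deposited values are signal values, read counts that the authors divided by a size factor per library. Columns were assigned by name and none was left over. Every value was a whole multiple of 1 step (100% within 0.01), and dividing by the step recovered reads. Floors (3 reads) and intervals cover counting error only. Where nothing says how replicates were raised, p-values measure the spread between these samples.

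Genes with a mean of at least 10 (13644 of 15078) were fitted as log2(value + 1), a scale that understates the change of low genes, in limma 3.58.1 (R 4.3.3) with 1 mean per group over all 10 libraries, empirical Bayes with a trend, two-sided Benjamini-Hochberg adjusted p under 0.05. Alternatives were other pseudocounts, filters and scalings, fits of 2 groups, leaving out libraries, a replicate block, the GC split as a covariate, edgeR 4.0.16 quasi-likelihood and DESeq2 1.42.0 on recovered reads. The fit was tested on simulated data. The GC split compared 51 genes over 65% GC with 6033 at 50% to 60%. Coordinates and exonic lengths are from GENCODE M21 (GRCm38), matched by Ensembl ID. The 7 genes and all lists were chosen with earlier results of these data known. Named were these 7, from the red cell lists genes called in a comparison or high in level, and the 5 genes most like each of the 7. Lists of other cells are given by counts and sums. A few genes of these lists are counted but not reported here by name.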

Additional observations from a re-analysis of the deposited data

Results flagged for a closer look

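Among 22 values tested in the 4 graft BM-MSC libraries, 5 had 1 library far from the others, where chance alone passes about 1 in 20 such groups. The lists overlap in source, since 4 of the 5 came from graft BM-MSC 3. Alas2 was 8.66% of the globin sum in graft BM-MSC 3 and 0% to 1.43% in the others. In the same library the neutrophil sum was 119670, with 5849 to 14069 in the others, the macrophage sum was 16476, with 3412 to 5626 in the others (3630 against 2003 to 3897 without Lyz2, which neutrophils make as well), and the leukocyte sum was 5342, with 250 to 925 in the others. The endothelial sum was 262 in graft BM-MSC 4 and 0 to 11.3 in the others. No cause of these values was tested.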

How the results depend on the processing

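Over the alternatives for single red cell genes, calls were kept in 142 cases and lost in 5 in P-SSCs against BM-MSCs. In graft BM-MSCs against BM-MSCs 49 were kept, 14 lost and 9 gained, and against P-SSCs 64 were kept, 20 lost and 7 gained. Graft BM-MSCs against P-SSCs gave 4 of the 7 genes, but 2 with only both groups compared in the fit and 1 with the GC split as a covariate, and leaving out 1 library gave 2 to 6. Other red cell genes gave 9, then 3 and 1 under the same settings and 3 to 12 on leaving out 1 library. Graft BM-MSCs against BM-MSCs gave 3 of the 7, but 0 with the GC split, 1 with edgeR, 6 with DESeq2 and 1 to 5 on leaving out 1 library. Over 21 alternatives the log2 differences ran from -6.05 to -3.26 for Hba-a1, from -5.39 to -3.91 for Car2 and from -14.10 to -6.87 for Slc4a1. Other red cell genes gave 17, but 8 at a mean of at least 100, 0 with the GC split, 4 with edgeR and 11 to 19 on leaving out 1 library. P-SSCs against BM-MSCs gave 7 of the 7 and 6 to 7 on leaving out 1 library. Other red cell genes gave 19, but 12 at a mean of at least 100, 4 with edgeR and 10 to 21 on leaving out 1 library. The cause of these changes was not tested, and where a library left 2 in its group the spread came from all groups. Equal library totals moved the median of all genes to -0.19 in graft BM-MSCs against BM-MSCs, from -0.53. Depth limits P-SSC values of under 3 reads.

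With a replicate block, the 7 genes gave 3 calls in graft BM-MSCs against P-SSCs, 1 in graft BM-MSCs against BM-MSCs and 4 in P-SSCs against BM-MSCs, and other red cell genes gave 0, 0 and 0. The libraries share a number only: deviations from the group means of same-numbered libraries had correlations of -0.019 to 0.030 over 5 pairs.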
